A study of Mus musculus with 96 samples.

Results

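The 10 genes described here are the AP-1 members Fos, Fosb, Jun, Junb and Jund, the related factor Atf3, the zinc-finger factor Egr1, and Ier2, Ier3 and Dusp1, which respond to the same signals. They were taken by gene name from a table of 19836 genes, in which each of the 10 had 1 row. They were selected on their pooled counts, after a higher level in cells of embryonic day E11.5 than in fetal liver cells had been seen in the same data, so their levels across the groups are a description and no test is attached to them. The data are RNA sequencing of 96 single cells from C57BL/6 mouse embryos, each sorted into its own well. The study set cells labelled as precursors of haematopoietic stem cells (pre-HSCs), from sites where such cells arise, beside stem cells (HSCs) of the fetal liver. Of the E11.5 pre-HSCs, 48 came from the aorta-gonad-mesonephros region (AGM) and 16 from yolk sac, and both were sorted as Ter119-CD11b-CD144+c-kit+EPCR+. The livers gave 16 HSCs at E12.5, sorted as Ter119-Sca-1+c-kit+EPCR+, and 16 at E14.5, sorted as Ter119-Sca-1+c-kit+CD48-CD150+. No genetic change or treatment is given for any group. The labels name no animal, litter or sorting day, so each group counts as 1 sample, and intervals cover counting error only. Tissue, age, gate and any response to tissue dissociation and sorting change together between the groups, so a dissociation response and a developmental difference cannot be told apart.

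Immediate-early genes are transcribed within minutes of a signal, without new protein synthesis, from promoters whose bound factors (SRF with its ETS partners, and CREB) are activated by MAP kinases and other kinases. Fos and Jun proteins pair through leucine zippers to form AP-1, which binds DNA at TGACTCA and related sequences, while Egr1 binds GC-rich sites. The transcripts are short-lived, and Dusp1 protein closes a feedback loop by removing phosphate from MAP kinases. In blood and endothelial cells these genes respond to growth factors, shear stress and inflammatory signals, and they are also known to be induced when solid tissue is dissociated by enzymes.

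RefSeq promoter sequences (GRCm38.p6) were used for 8 of the 10 genes. Ier2 had no entry, and Egr1 was left out of the search, so the counts below do not cover it. For each gene 1 listed start site was used, and the 150 bases before it were searched on both strands. The starts used for Atf3 and Dusp1 lie within the gene spans given below, not at their upstream ends. The Jund window, at chr8:70697589-70697738, lies upstream of the Jund span given below and does not adjoin it. The core TGACG, the shared part of sites bound by CREB and ATF proteins, was present in 5 of the 8 windows and in 13.3% of all 32851 promoter windows in the same table. Those 5 are shown because they include Fos, Junb and Dusp1, which were abundant at E11.5, and Fosb and Atf3, which were nearly or wholly without reads in fetal liver. Capitals mark TGACG on either strand, the palindrome TGACGTCA, and the Egr consensus GCGGGGGCG.
Fos: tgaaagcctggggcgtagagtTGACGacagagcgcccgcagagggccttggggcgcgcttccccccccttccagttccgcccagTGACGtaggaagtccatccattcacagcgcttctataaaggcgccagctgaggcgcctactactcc
Fosb: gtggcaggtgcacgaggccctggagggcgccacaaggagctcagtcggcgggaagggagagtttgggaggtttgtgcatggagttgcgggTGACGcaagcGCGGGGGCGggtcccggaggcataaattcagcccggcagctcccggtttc
Junb: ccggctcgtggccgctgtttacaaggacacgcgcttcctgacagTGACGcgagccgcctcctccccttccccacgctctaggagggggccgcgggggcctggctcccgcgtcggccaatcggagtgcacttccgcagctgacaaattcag
Atf3: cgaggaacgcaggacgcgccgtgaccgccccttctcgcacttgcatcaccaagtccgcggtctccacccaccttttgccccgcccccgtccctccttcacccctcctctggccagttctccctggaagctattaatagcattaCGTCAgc
Dusp1: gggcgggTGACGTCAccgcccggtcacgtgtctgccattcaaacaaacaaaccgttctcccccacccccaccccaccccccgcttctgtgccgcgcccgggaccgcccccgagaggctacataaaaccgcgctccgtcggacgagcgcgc
These windows lie at chr12:85473740-85473889 on the plus strand for Fos, and on the minus strand at chr7:19310046-19310195 for Fosb, chr8:84978749-84978898 for Junb, chr1:191183334-191183483 for Atf3 and chr17:26508473-26508622 for Dusp1. Fos held 2 TGACG cores, at bases -129 and -66 from the start, and also TATAAA at -33, which 7.57% of all windows held. Fosb held 1 TGACG core at -60 and GCGGGGGCG at -50, and the latter was in 2.09% of all windows. Dusp1 held the whole palindrome TGACGTCA at -143, which includes TGACG on both strands and was in 1.36% of all windows. The AP-1 sequence TGACTCA was in 0 of the 8 windows and in 2.84% of all, and the CArG box was in 0 of 8 and 0.916%. A match is a statement about letters in this window only.

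Each cell had between 250235 and 1926882 reads on genes, with group medians from 1164184 to 1446148, so the groups were of similar depth. AGM and yolk sac cells had a median of 5522.5 and 5349.5 genes detected, E12.5 cells 4036 and E14.5 cells 4839. Some cells stood apart, or had reads that differed from the proteins of their gate. Gates act on surface protein, so reads or their absence do not show that a cell was wrongly sorted. E12.5 liver cell 8 had 1011 genes detected. E14.5 liver cells 3, 8, 13 and 16 held 99.3% of their group's reads of 10 erythroid markers, with 46027 to 227780 CPM (counts scaled to a common library total), against at most 1510 CPM in the other 12 cells. Among the yolk sac cells, 8 of 16 had a read of Cdh5 (CD144) or Procr (EPCR), genes of the gate, and 8 had none. In AGM 45 of 48 cells had a read of Cdh5 and 41 of Procr, and 8 of 16 E12.5 cells, sorted as EPCR+, had one of Procr. Of the E14.5 cells, sorted as CD48-CD150+, 6 of 16 had a read of Cd48 and 4 of Slamf1 (CD150). Itgam (CD11b), which the E11.5 gate excludes, had a read in 8 of 48 AGM and 6 of 16 yolk sac cells. Ly6a (Sca-1) was read in 12 of 16 cells of each liver group. Kit, which all gates select, was detected in 43 of 48 AGM and 12 of 16 yolk sac cells and in 12 and 14 of the 16 cells of the E12.5 and E14.5 livers. Leaving out the 4 erythroid-rich cells, or using only the 8 yolk sac cells with Cdh5 or Procr reads, changed no count of members at least 2-fold lower in liver than in E11.5 cells.

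Nearly all E11.5 cells carried most of the 10 genes, and fetal liver cells carried about 4. In AGM the number of members with at least 1 read was 4 in the lowest cell, 9 at the median and 10 in the highest cell. Yolk sac cells had 3, 8 and 10. E12.5 liver cells had 0, 4 and 9, and E14.5 liver cells had 1, 4.5 and 7. At least 8 members were detected in 34 of 48 AGM cells (70.8%, exact Clopper-Pearson 95% interval 55.9 to 83.0%), 9 of 16 yolk sac cells (56.2%, 29.9 to 80.2%), 1 of 16 E12.5 cells (6.25%, 0.158 to 30.2%) and 0 of 16 E14.5 cells (0 to 20.6%). All 10 were found in 14 AGM and 4 yolk sac cells and in 0 liver cells. The distributions overlapped at 3 to 9 members, and the E12.5 cell with 9 was cell 1, in which 10509 genes were detected. With every cell thinned to 500000 reads, and 1 AGM and 1 E12.5 cell left out as too shallow, the medians were 9, 7.5, 4 and 4. The order of E11.5 above liver was thus present at equal depth. Thinning evens out reads and not genes detected. Within AGM, yolk sac, E12.5 and E14.5, members detected had Spearman correlations of 0.39, 0.80, 0.37 and 0.20 with genes detected. The part of genes detected in the number of members was not tested.

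**Figure D1:**
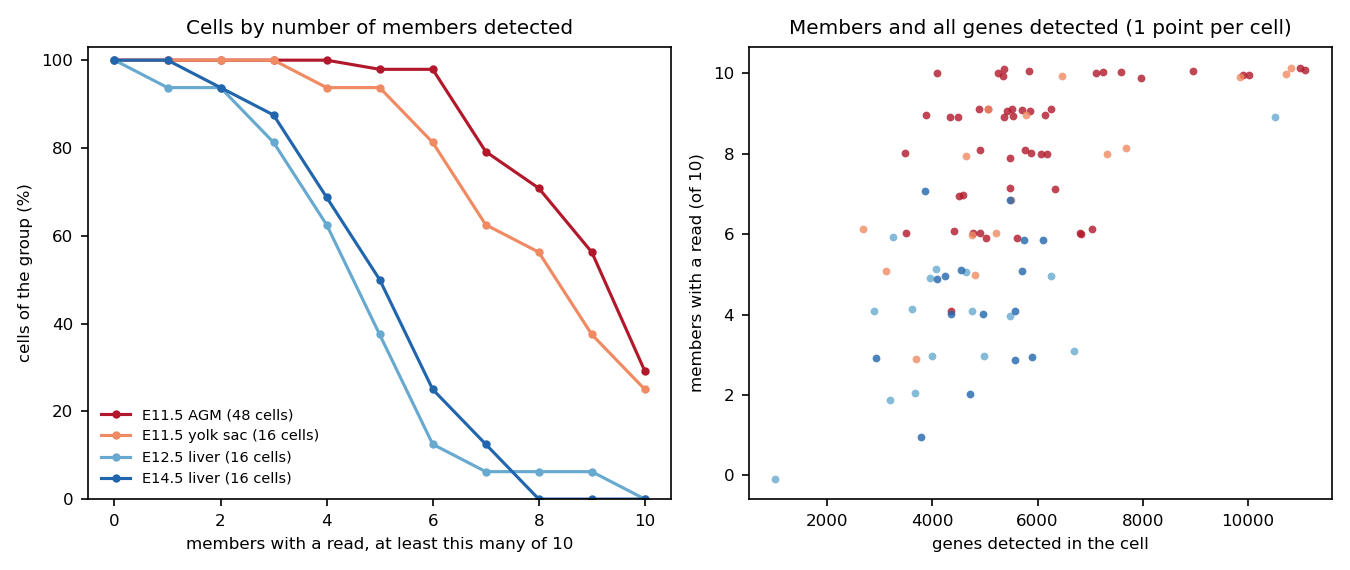
Left, percentage of cells in each group (y axis) with at least a given number of the 10 members detected (x axis). Right, members detected against all genes detected, 1 point per cell in the same colours.

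Summed over the 10 genes, the level per cell was 190 CPM in the lowest AGM cell, 2067 at the median and 10759 in the highest. Yolk sac cells reached 412, 2398 and 3804 CPM, E12.5 cells 0, 328 and 3921 CPM, and E14.5 cells 23.9, 514 and 2367 CPM. The ranges overlapped, but only 1 cell of 16 in each liver group lay above the AGM median. Both were the cells numbered 9 of their groups. E12.5 cell 9 had 3921 CPM made of Jun, Junb, Jund, Ier2, Ier3 and Dusp1, and had 0 reads of Fos, Fosb, Atf3 and Egr1. E14.5 cell 9 had 344 CPM of Fos, 366 CPM of Jun, 584 CPM of Ier2 and 816 CPM of Dusp1, again with 0 reads of Fosb, Atf3 and Egr1. At the other end, AGM cell 18 had 8 members detected yet only 190 CPM in all, with 6184 genes detected.

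Fos (chr12:85473890-85477273, plus strand) encodes the Fos subunit of AP-1. Its level per cell was 0, 187.8 and 2337 CPM (lowest, median, highest) in AGM, 0, 333 and 1472 CPM in yolk sac, 0, 0 and 662 CPM in E12.5 liver and 0, 0 and 633 CPM in E14.5 liver. Fos was thus present in most E11.5 cells and absent from more liver cells than not: a read was found in 38 of 48, 14 of 16, 5 of 16 and 7 of 16 cells, and after thinning in 78.7%, 87.5%, 33.3% and 37.5%. Pooled over the cells of a group, Fos was at 384 CPM (95% Poisson interval 379 to 389) in AGM, 423 (414 to 431) in yolk sac, 74.6 (70.8 to 78.6) in E12.5 and 121 (116 to 126) in E14.5. The pooled E12.5 level was 23.9 CPM without cell 14. In the E14.5 cells that had Fos, its median was 337 CPM, against 262 CPM in such AGM cells and 351 CPM in such yolk sac cells, so at E14.5 a smaller share of cells had the transcript while the median of those that did lay between the E11.5 medians. The lowest such E14.5 cell had 0.697 CPM, against 0.948 CPM in AGM and 1.18 CPM in yolk sac. In E12.5 the median of the 5 cells with Fos was 57.0 CPM.

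Fosb (chr7:19302696-19310051, minus strand), a Fos paralogue that also pairs with Jun proteins, was found almost only in E11.5 cells in these libraries. It was at 0, 17.5 and 550 CPM (lowest, median, highest cell) in AGM and at 0, 7.80 and 77.4 CPM in yolk sac. In E12.5 liver there were 2 reads in all, both in cell 1, so the pooled level of 0.105 CPM became 0 without it, and E14.5 liver had 0 reads. A read was present in 35 of 48 AGM cells and 8 of 16 yolk sac cells. The AGM level of 55.0 CPM (53.1 to 56.9) was 524 times that of E12.5 (counting interval 144.8 to 4325), and was at least 377-fold higher than in E14.5, taking 3 reads in the whole group as the floor. The yolk sac level of 19.4 CPM (17.6 to 21.3) was 184.5 times that of E12.5 (50.8 to 1528) and at least 133-fold higher than in E14.5. Per kilobase of principal transcript, Fos made up 92.6% of Fos plus Fosb in AGM and 97.51% in yolk sac, and 99.9% and 100% in the E12.5 and E14.5 livers.

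The 3 Jun genes, whose proteins can pair with each other as well as with Fos proteins, differed from one another. Junb (chr8:84974484-84978718, minus strand) was at 0, 279 and 1980 CPM (lowest, median, highest cell) in AGM and 0, 280.0 and 974 CPM in yolk sac, but at 0, 0 and 670 CPM in E12.5 and 0, 0 and 306 CPM in E14.5. Only 1 cell of each liver group was above the AGM median, and a read was present in 47 of 48, 14 of 16, 6 of 16 and 6 of 16 cells. The pooled levels were 401 CPM (396 to 406), 320.3 (313 to 328), 59.0 (55.6 to 62.6) and 56.7 (53.5 to 60.0). The E12.5 value was 35.8 CPM without cell 9.

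Jund (chr8:70698949-70700616, plus strand), the Jun gene known for its steadier expression, was found in every AGM, yolk sac and E14.5 cell and in 13 of 16 E12.5 cells. Its per-cell level was 12.47, 109 and 395 CPM in AGM, 1.60, 31.1 and 206.1 CPM in yolk sac, 0, 33.2 and 315 CPM in E12.5 and 6.14, 34.4 and 300.2 CPM in E14.5. AGM cells were the higher group here, and the other 3 groups overlapped throughout, with pooled levels of 128 CPM (125 to 131) in AGM and 59.0 (55.8 to 62.2), 49.2 (46.1 to 52.5) and 56.4 (53.2 to 59.8) CPM in the rest.

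Jun (chr4:95049034-95052222, minus strand) was the member with the smallest difference between AGM and liver. It was at 0, 49.1 and 513 CPM (lowest, median, highest cell) in AGM, 0, 16.5 and 214.6 CPM in yolk sac, 0, 0 and 604 CPM in E12.5 and 0, 0 and 366 CPM in E14.5. Fewer liver cells had it, 7 of 16 and 6 of 16 against 39 of 48 in AGM and 9 of 16 in yolk sac, while the median among cells with a read was 90.0 CPM in E12.5 and 218.7 CPM in E14.5 against 65.0 CPM in AGM and 48.03 CPM in yolk sac. The pooled levels differed by less than 2-fold between AGM and either liver: 82.8 CPM (80.6 to 85.2) in AGM, 40.6 (37.97 to 43.3) in yolk sac, 66.1 (62.5 to 69.8) in E12.5 and 94.6 (90.5 to 98.9) in E14.5. The E12.5 value was 40.3 CPM without cell 5. Per kilobase, Junb made up 68.3% of the 3 Jun transcripts in AGM and 78.6% in yolk sac, but 39.4% in E12.5 and 33.04% in E14.5. The Jun share was 8.02% and 5.65% at E11.5 and 25.002% and 31.3% in the livers, and the Jund share was 23.7%, 15.7%, 35.6% and 35.7%.

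Atf3 (chr1:191170296-191218039, minus strand) encodes a stress-induced factor of the ATF family that pairs with Jun proteins. It was at 0, 0.550 and 809 CPM (lowest, median, highest cell) in AGM and at 0, 0 and 298 CPM in yolk sac, and had 0 reads in all 32 liver cells. Its expression was uneven at E11.5: 25 of 48 AGM cells and 6 of 16 yolk sac cells had a read, with medians of 122 and 84.7 CPM among them. The pooled AGM level was 87.0 CPM (84.7 to 89.4). The yolk sac level of 43.8 CPM (41.1 to 46.6) was 22.6 CPM without cell 7. With the same floor, yolk sac was at least 278-fold higher than E12.5 and at least 301-fold higher than E14.5, and AGM was at least 597-fold higher than E14.5. A count of 0 cells of 16 has an exact 95% interval of 0 to 20.6% in each liver group, and 3 cells of 16, the floor used for counts of 0, would be 18.8%.

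Egr1 was the member with the highest yolk sac level relative to AGM. It was at 0, 29.99 and 332 CPM (lowest, median, highest cell) in AGM and 0, 126 and 631 CPM in yolk sac. In E12.5 it was at 0, 0 and 34.4 CPM and in E14.5 at 0, 0 and 6.20 CPM. A read was present in 41 of 48 and 14 of 16 E11.5 cells but in only 4 of 16 cells at E12.5 and 1 of 16 at E14.5, and after thinning in 83.0%, 87.5%, 6.67% and 6.25%. Pooled, Egr1 was at 66.5 CPM (64.4 to 68.5) in AGM, 165.7 (160.4 to 171.1) in yolk sac, 2.36 (1.72 to 3.16) in E12.5 and 0.340 (0.137 to 0.701) in E14.5. AGM was 28.1 times E12.5 (20.99 to 38.6) and 195.4 times E14.5 (94.8 to 486). Each liver value rested on 1 cell: the E12.5 level was 0.168 CPM without cell 7, and the E14.5 level was 0 without cell 8.

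Ier2 (chr8:84661331-84662852, minus strand), a nuclear immediate-early protein, was the most widely detected member beside Jund. All 64 E11.5 cells had a read, as did 13 of 16 cells in each liver group. Its level was 11.4, 706 and 2209 CPM (lowest, median, highest cell) in AGM, 285, 886 and 1611 CPM in yolk sac, 0, 142.03 and 1125 CPM in E12.5 and 0, 129.9 and 584 CPM in E14.5. The highest E14.5 cell lay below the median of both E11.5 groups, and 1 E12.5 cell lay above them. The pooled levels were 815 CPM (808 to 823), 875 (863 to 888), 232.3 (225.5 to 239) and 152.1 (146.9 to 157.6).

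Ier3 (chr17:35821684-35822923, plus strand), which modulates ERK signalling and cell survival, was at 0, 98.6 and 1295 CPM (lowest, median, highest cell) in AGM, 0, 5.61 and 616 CPM in yolk sac, 0, 0 and 701 CPM in E12.5 and 0, 34.3 and 125 CPM in E14.5. These ranges overlapped more than those of Ier2, and a read was present in 36 of 48, 11 of 16, 7 of 16 and 9 of 16 cells. The pooled AGM level was 227.6 CPM (223.8 to 231.4) and the E14.5 level 44.3 (41.5 to 47.3). The yolk sac level of 105 CPM (101 to 109.7) was 62.7 without cell 7, and the E12.5 level of 92.0 CPM (87.7 to 96.4) was 53.7 without cell 15.

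Dusp1 (chr17:26505590-26562128, minus strand), the MAP kinase phosphatase, was at 0, 214.8 and 2462 CPM (lowest, median, highest cell) in AGM, 0, 196.9 and 1047 CPM in yolk sac, 0, 0.991 and 977 CPM in E12.5 and 0, 48.4 and 877 CPM in E14.5. It was detected in 42 of 48, 12 of 16, 8 of 16 and 12 of 16 cells, so E14.5 matched the yolk sac share with a lower median. The pooled levels were 400.1 CPM (395 to 405), 263 (256 to 269), 83.4 (79.3 to 87.6) and 202.3 (196.2 to 208.6). Without cell 9 the E12.5 level was 49.4 CPM, and without cell 4 the E14.5 level was 133 CPM.

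**Figure D2:**
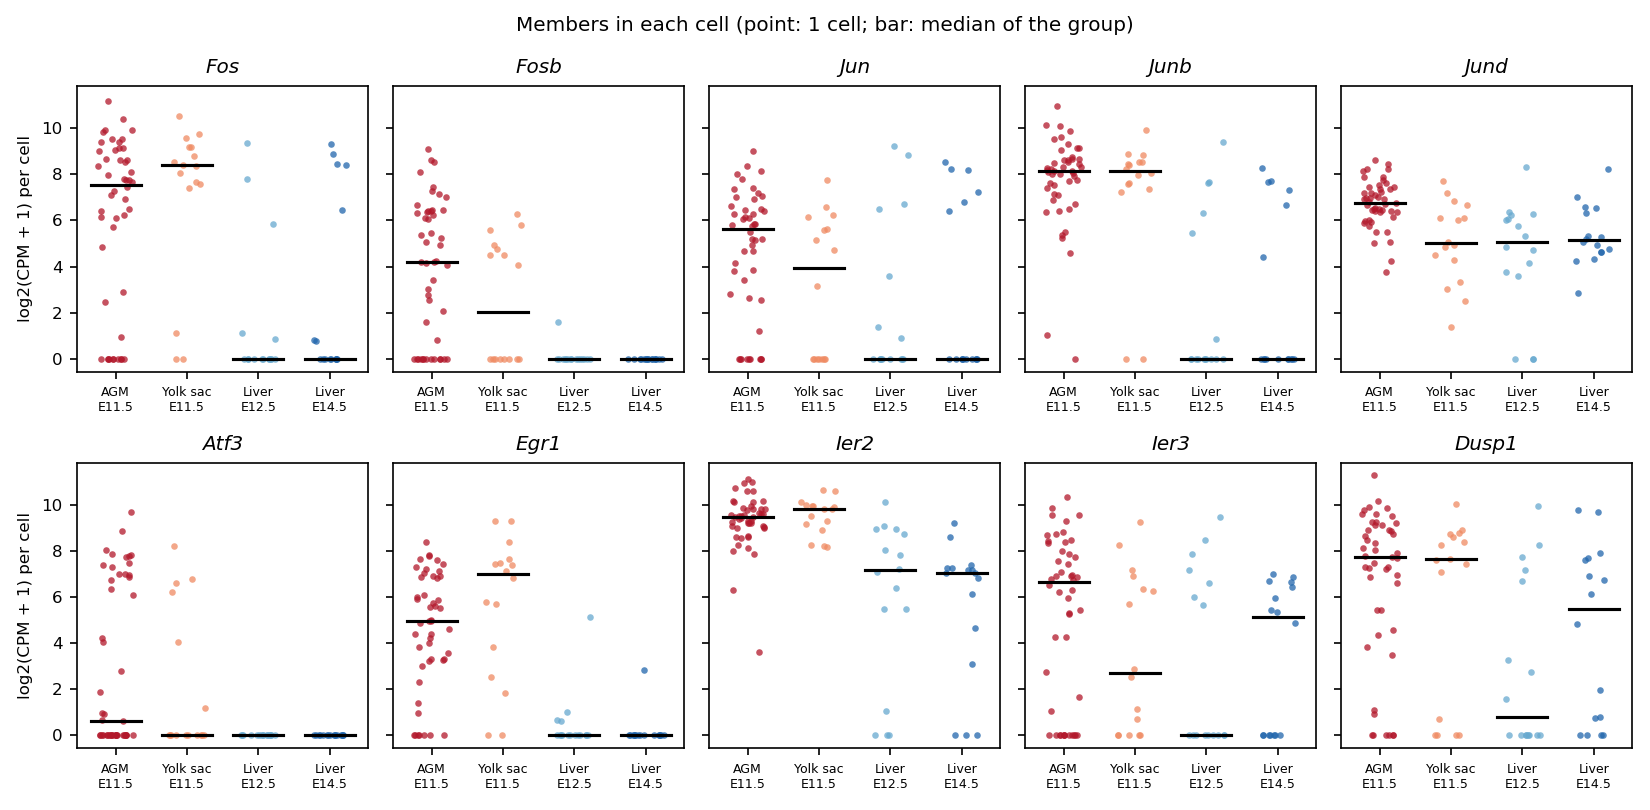
Level of each member in each cell as log2(CPM + 1) (y axis) in the 4 groups (x axis); each point is 1 cell and the bar is the group median. Fosb, Atf3 and Egr1 are at or near 0 in almost all liver cells, while Jund and Ier2 are detected in most cells of every group.

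**Figure D3:**
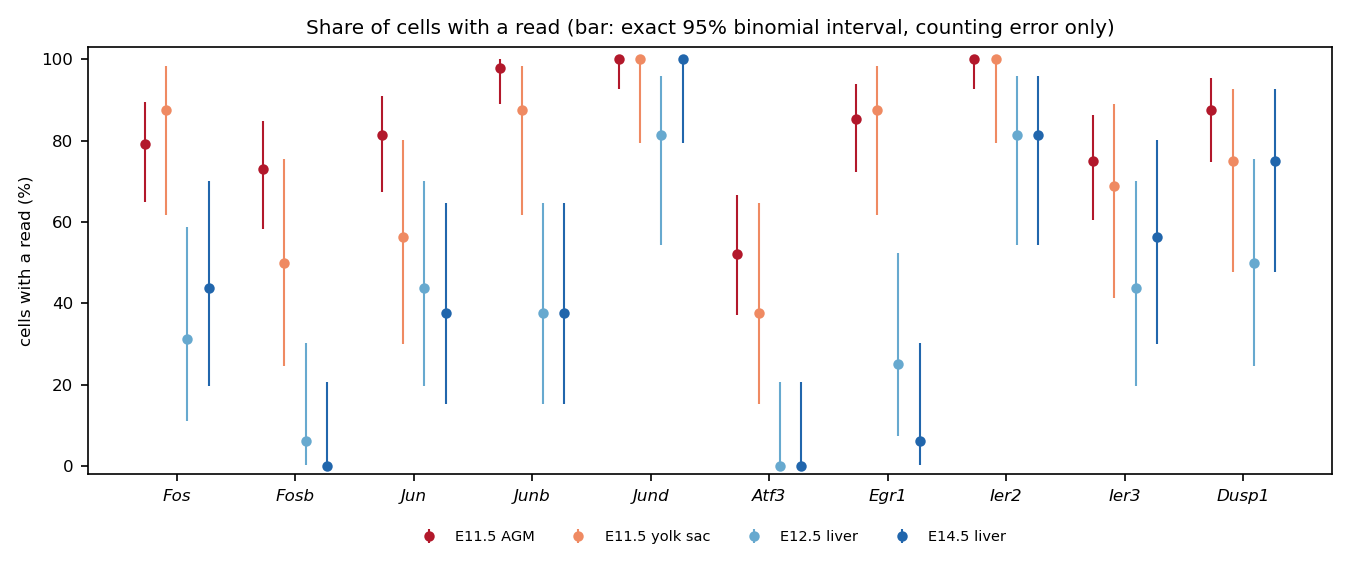
Share of cells with at least 1 read of each member (y axis, percent) in the 4 groups, with exact 95% binomial intervals for counting error. Atf3 is at 0 in both livers, Fosb at 0 in E14.5, and Jund is at 100% in every group but E12.5 liver.

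The groups were then compared pairwise as log2 ratios of pooled CPM with 1 CPM added to each group, which makes changes at low levels look smaller, and a member at or past 2-fold was counted. These 6 comparisons share groups with one another, and the members were chosen for the contrast between E11.5 and liver, so nothing is read from its counts. In E12.5 liver against AGM, 9 of 10 members were at least 2-fold lower, where 26% of 15239 genes with at least 30 reads were, and 0 were at least 2-fold higher, where 15.6% of all genes were. The exception was Jun at -0.32, which was 0.11 when cells were thinned and -1.02 without E12.5 cell 5. The median over the members was -2.30 and over all genes -0.20. In E14.5 liver against AGM, 8 of 10 were at least 2-fold lower, where 25.3% of all genes were, and 0 were higher, where 15.3% were, with medians of -2.37 and -0.23. Dusp1, at -0.98, lay just outside the threshold (-1.59 without E14.5 cell 4 and -1.42 without cell 9, and also past it without any 1 of 13 AGM cells), Jund, at -1.17, was the nearest inside it, and Jun was at 0.19. Against yolk sac, 7 of 10 were at least 2-fold lower in E12.5 (19.5% of all genes) and 7 of 10 in E14.5 (18.1%), with member medians of -2.16 and -2.14 and all-gene medians of 0. In E12.5 against yolk sac, 0 members were at least 2-fold higher, where 19.7% of all genes were. The E14.5 count was 6 without yolk sac cell 6 or 7, when Ier3, at -1.23, was -0.96 or -0.49. Jun was higher in E14.5 than in yolk sac, at 1.202, where 18.8% of all genes were at least 2-fold higher, but was below 2-fold, at 0.98, 0.79 and 0.98, without E14.5 cell 5, 9 or 10. Jun in E12.5 against yolk sac was at 0.69, and at 1.22 without yolk sac cell 5. Jund did not differ by 2-fold between yolk sac and either liver, at -0.26 for E12.5 and -0.06 for E14.5.

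Between the E11.5 tissues, 4 of 10 members were at least 2-fold lower in yolk sac than in AGM, where 21% of all genes were. They were Fosb at -1.46, Jund and Ier3 at -1.10 each and Jun at -1.01, and Atf3 at -0.97 was just outside. The count was 2 to 5 as single cells were left out, with the lowest value without yolk sac cell 6. Jund was -0.997 without that cell, Ier3 was -0.90 or -0.98 without AGM cell 23 or 30, and Jun and Atf3 crossed the 2-fold line on omission of any 1 of 20 and 24 cells. Egr1 was higher in yolk sac at 1.30, where 8.61% of all genes were at least 2-fold higher, but was at 0.96 without yolk sac cell 4. Fos, Ier2 and Junb differed little, at 0.14, 0.10 and -0.32. Of the 16 yolk sac cells, 11 lay above the AGM median for Egr1 and 3 did for Jund. In the 8 yolk sac cells with Cdh5 or Procr reads the median number of members was 9 and their median summed level 2398 CPM, and in the 8 without such reads 6 and 2357 CPM. The median number of genes detected was 7498.5 and 4726 in those cells, and its part in the number of members was not tested.

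Between the livers, 2 of 10 members were at least 2-fold lower at E14.5 than at E12.5, where 18.2% of all genes were, namely Egr1 at -1.33 and Ier3 at -1.04. Dusp1 was higher at E14.5, at 1.27, where 18.7% of all genes were at least 2-fold higher. The member median was -0.03 and the all-gene median 0, so the share of members past 2-fold was near the background. These values depended on few cells: the count of lower members was 0 when E12.5 cell 7 was omitted, the source of 93.3% of that group's Egr1 reads, when the Egr1 ratio was 0.198, and 1 without E12.5 cell 9, 15 or 16 or without E14.5 cell 1, 2, 6, 7, 10, 11 or 14. The Dusp1 ratio ranged from 0.66 to 2.01 as single cells were left out, with 0.66 and 0.83 without E14.5 cell 4 and cell 9, and was 0.57 after thinning. Fos, at 0.69, was 2.29 without E12.5 cell 14, Jun, at 0.51, was 1.21 or 1.04 without E12.5 cell 5 or 9, and Ier2, at -0.61, was -1.01 without E14.5 cell 9.

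**Figure D4:**
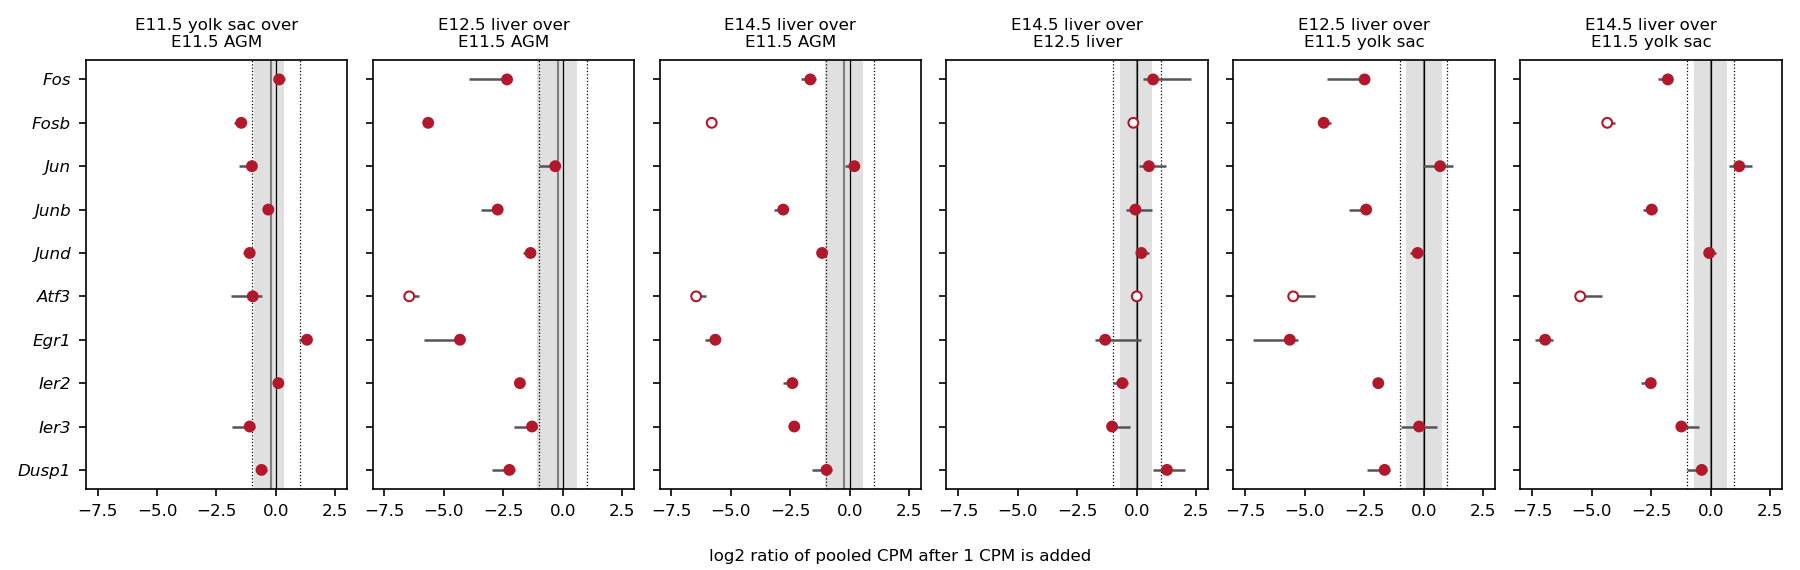
Log2 ratios of pooled CPM after 1 CPM was added (x axis) for each member (y axis) in the 6 comparisons. Points are ratios, open where a group had 0 reads, lines are the range over single-cell omissions, the grey band and line are the quartiles and median of all 15239 genes, and dotted lines mark 2-fold; in the liver comparisons most members lie left of the band, while Jun lies within or right of 2-fold in all 4 and Jund lies near 0 against yolk sac.

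Within single cells, the combinations counted here that include Fos or Egr1 were found in most E11.5 cells and in a minority of the liver cells, while Jund and Ier2 were found together in most cells of every group. At least 1 of Fosb, Atf3 and Egr1 had a read in 46 of 48 AGM cells and 14 of 16 yolk sac cells, against 4 of 16 at E12.5 and 1 of 16 at E14.5. Fos and Egr1 were both present in 33 of 48, 13 of 16, 2 of 16 and 1 of 16 cells. A Fos or Fosb read together with a read of a Jun gene, the pair needed for a Fos-Jun dimer, was present in 42 of 48, 15 of 16, 5 of 16 and 7 of 16 cells. Jund with Ier2, the most widely detected pair of members, was present in 48 of 48, 16 of 16, 11 of 16 and 13 of 16 cells.

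Over the 48 AGM cells the members varied together loosely. The 45 pairs had a median Spearman correlation of 0.24 (range -0.05 to 0.58), 41 were above 0, and the highest was Fos with Dusp1. Set against the sum of the other members, Egr1 (0.59), Dusp1 (0.57), Fos (0.57), Junb (0.55) and Ier2 (0.53) had the highest values, and Jun (0.19), Fosb (0.20) and Jund (0.23) the lowest. All points share the cell's depth, and the summed level correlated at 0.40 with total reads and at -0.04 with genes detected. Among 5343 genes with a read in at least 50% of AGM cells, those outside all lists whose level was most like the summed members were Nfkbid (0.54), Plk2 (0.53), Rnase6 (0.53), Rab11b (0.49), Gpbp1l1 (0.49), Afg3l1 (0.49), Gimap6 (0.49) and Stxbp2 (0.47). The middle 95% of all these genes lay between -0.32 and 0.32, so a single high value is a weak description. Plk2, a polo-like kinase gene, was at 228.3 and 223.3 CPM in AGM and yolk sac, at 8.35 CPM in E12.5 (3.66 without cell 1) and at 0.389 CPM in E14.5 (0.106 without cell 12), while Gimap6 and Rab11b were not lower in liver, at 774 and 336 CPM in E12.5 against 572 and 288 CPM in AGM.

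Other genes of the immediate-early response were read from lists, given here as counts at 2-fold. Genes named from a list were picked for the largest E12.5 to AGM ratios, so their values are not typical of it. Against AGM, the shares of all genes at least 2-fold lower and higher were 26% and 15.6% in E12.5 and 25.3% and 15.3% in E14.5. Of 21 other immediate-early regulators, 15 were lower and 1 higher in E12.5 than in AGM, and 16 were lower and 0 higher in E14.5, with medians of -2.50 and -1.96. The nuclear receptor gene Nr4a1 was at 373 and 365 CPM in AGM and yolk sac, and at 5.14 and 5.93 CPM in the E12.5 and E14.5 livers. The E12.5 value was 0.291 without cell 2 and the E14.5 value 1.62 without cell 1. Btg2, an antiproliferative gene, was at 94.0, 115, 1.42 and 28.9 CPM, with 0.277 CPM in E12.5 without cell 1. Nr4a2 was at 49.8 CPM in yolk sac and 0.437 CPM in E14.5, the latter 0.0536 without cell 4. Cyr61, a secreted matrix protein gene, was at 99.6 CPM in AGM (63.2 without cell 8) and 5.83 CPM in yolk sac (3.66 without cell 2), with 0 reads in both livers, so AGM was at least 632-fold higher than E12.5.

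Feedback inhibitors, which include phosphatases of MAP kinases, followed a like pattern: 17 of 22 were lower and 1 higher in E12.5 than in AGM, and 16 lower and 1 higher in E14.5, with medians of -1.73 and -1.63, where 26% and 25.3% of all genes were lower and 15.6% and 15.3% higher. Dusp2, a nuclear MAP kinase phosphatase, was at 276, 195.1, 29.4 and 102 CPM in the 4 groups, the last 57.0 without E14.5 cell 9. Dusp5, a phosphatase that acts on ERK, was at 70.6, 84.6, 6.98 and 15.9 CPM, the E12.5 value being 3.36 without cell 13 and the E14.5 value 6.33 without cell 15. The stress genes Gadd45b and Gadd45g were at 20.2 and 108 CPM in AGM. Gadd45b was at 2.73 CPM in yolk sac (0.834 without cell 1) with 0 reads in both livers. Gadd45g was at 35.6 CPM in yolk sac, 8.24 in E12.5 (0.463 without cell 13) and 9.08 in E14.5 (2.59 without cell 13).

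Of 5 Egr relatives and Nab corepressors, the latter known to bind Egr proteins, 3 were lower and 0 higher in each liver than in AGM. Of all genes, 26% and 25.3% were lower and 15.6% and 15.3% higher in E12.5 and E14.5. Nab2 was at 15.9 CPM in AGM, 5.60 in yolk sac (3.34 without cell 1), 3.88 in E12.5 (1.85 without cell 5) and 12.2 in E14.5 (3.56 without cell 2). Nab1 was at 38.3, 25.02, 21.4 and 12.2 CPM, with 12.6 in E12.5 without cell 13. Of 11 AP-1 partners, 5 were lower and 2 higher in E12.5, and 6 lower and 1 higher in E14.5, beside 26% and 25.3% of all genes lower and 15.6% and 15.3% higher, so the higher counts were near the background. The E14.5 lower count was 4 without E14.5 cell 9. The higher counts were 1 to 2 in E12.5 and 0 to 1 in E14.5 as cells were left out. Fosl2, a Fos relative, was at 29.1 CPM in AGM, 18.2 in yolk sac (6.81 without cell 6), 0.472 in E12.5 (0.163 without cell 12) and 0.923 in E14.5 (0.251 without cell 2). Batf, which pairs with Jun proteins in blood cells, was higher in E12.5 than in AGM, at 57.3, 59.9, 151.9 and 102 CPM. Its E12.5 value was 104.6 without cell 7, and 62.5% of E12.5 cells had a read against 70.8% of AGM cells. Atf4, of the integrated stress response, was at 369, 355, 82.8 and 171.8 CPM, and Nfe2l2, of the oxidative stress response, at 119, 96.7, 70.6 and 136 CPM.

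The kinases and factors upstream of these genes were mostly within 2-fold. Of 20, 5 were lower and 0 higher in E12.5 than in AGM, where 26% of all genes were lower and 15.6% higher. That lower count was near the background, and was 3 without AGM cell 47. In E14.5, 7 were lower and 0 higher, where 25.3% and 15.3% of all genes were, and the lower count was 7 to 9 as cells were left out. Srf, the factor that binds CArG boxes, was at 24.2 CPM in AGM, 14.1 in yolk sac (8.95 without cell 5), 4.46 in E12.5 (2.07 without cell 4) and 0.680 in E14.5, where all reads were in cell 7. Crem, of the CREB family, was at 138.97, 31.1, 8.14 and 12.9 CPM, with 3.26 in E12.5 without cell 3 and 0.106 in E14.5 without cell 9. The MAP kinase gene Mapk3 was at 135, 96.1, 65.0 and 44.5 CPM. Mapk8, which encodes the JNK1 kinase of Jun, was at 12.6 CPM in AGM, 7.80 in yolk sac (4.67 without cell 5), 4.99 in E12.5 (1.05 without cell 2) and 1.85 in E14.5 (0.643 without cell 4). Of 10 reference genes, 0 were past 2-fold between either liver and AGM (1 was without E12.5 cell 4), with Pgk1 at 369, 342, 688 and 669 CPM in the 4 groups, Sdha at 303, 455, 457 and 411, and Ppia at 7073, 6292, 5757 and 5076 CPM.

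Heat shock and chaperone genes, also known to respond to tissue dissociation, were set beside the members. Of 15, 5 were lower and 0 higher in E12.5 than in AGM, where 26% of all genes were lower and 15.6% higher, so the lower count was near the background. In E14.5, 7 were lower and 0 higher, where 25.3% and 15.3% of all genes were. Against yolk sac, 6 were lower in E12.5 (19.5% of all genes) and 9 in E14.5 (18.1%). None were higher, where 19.7% and 18.8% of all genes were. These lower counts were 4 to 8 and 7 to 11 as cells were left out. Their summed pooled level was 12871 and 15208 CPM in AGM and yolk sac and 8809 and 7848 CPM in the E12.5 and E14.5 livers, and Hspa1a, Hspa1b and Hspb1 had 0 reads in both livers. Hspa5, a chaperone of the endoplasmic reticulum, was at 824, 913, 410.2 and 365 CPM, and Dnajb1, an Hsp70 cochaperone, at 200.3, 152.6, 124 and 74.2 CPM. Hsph1 was at 83.8, 90.9, 48.5 and 26.9 CPM, with 22.5 in E12.5 without cell 2 and 7.50 in E14.5 without cell 7, and the heat shock factor Hsf1 was at 101, 77.3, 51.0 and 81.5 CPM. Over the 48 AGM cells, the summed heat shock level and the summed member level had a Spearman correlation of -0.12. In yolk sac and the E12.5 and E14.5 livers, with 16 cells each, it was -0.04, -0.21 and -0.48. The summed heat shock level, like most members, was lower in both livers than at E11.5, and its part in the members' levels was not tested.

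**Figure D5:**
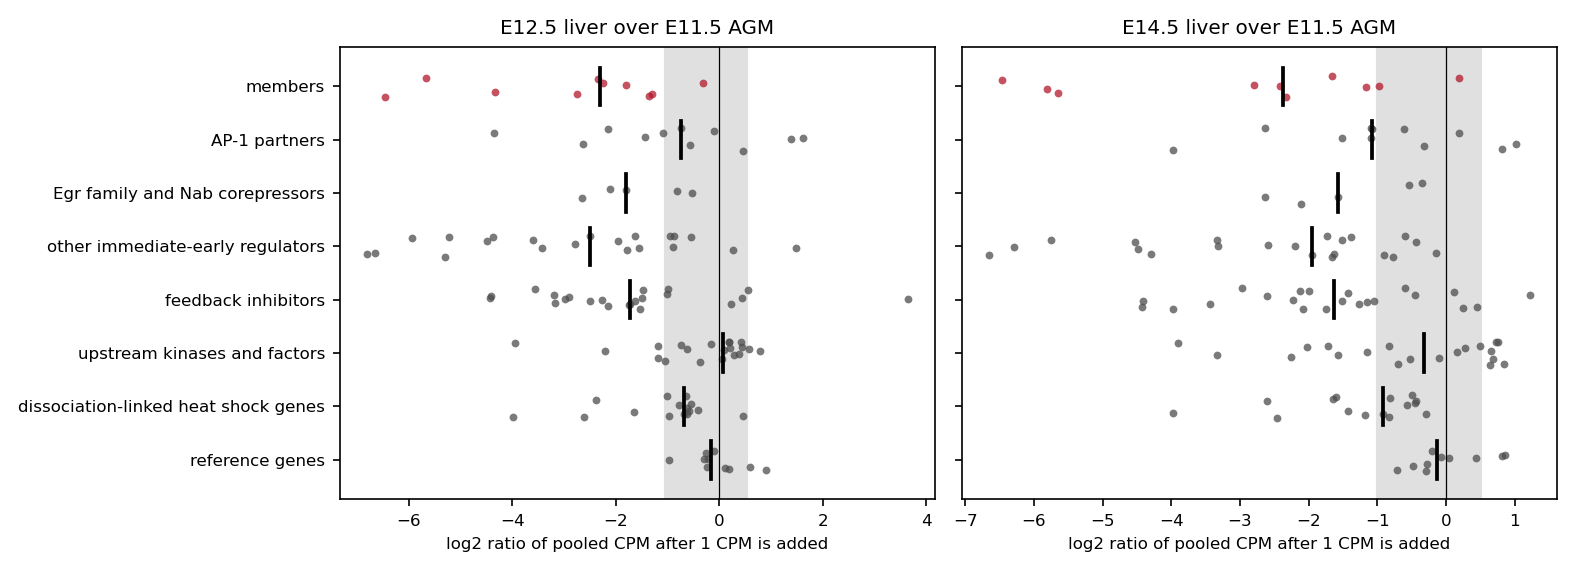
Log2 ratios of pooled CPM after 1 CPM was added (x axis), E12.5 liver over AGM on the left and E14.5 liver over AGM on the right, for the members and 7 lists (y axis). Each point is 1 gene, the bar is the list median and the grey band holds the middle quartiles of all genes; the medians of the members, other immediate-early regulators and feedback inhibitors lie left of the band and the median of the reference genes lies inside it.

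Endothelial and erythroid markers also differed between the groups, and most haematopoietic markers were within 2-fold. Of 11 endothelial markers, 8 were at least 2-fold lower in yolk sac than in AGM (21% of all genes), 7 in E12.5 (26%) and 7 in E14.5 (25.3%), with medians of -1.45, -2.07 and -2.70 and 0 higher. Of 12 haematopoietic markers, 10, 9 and 11 were within 2-fold of AGM in those 3 groups. In yolk sac 1 was lower and 1 higher (21% and 8.61% of all genes), in E12.5 1 and 2 (26% and 15.6%), and in E14.5 0 and 1 (25.3% and 15.3%). The higher counts in yolk sac and E12.5 were thus near the background. Of 10 erythroid markers, 7 were at least 2-fold higher in E12.5 than in AGM (15.6% of all genes) and 8 in E14.5 (15.3%). All 11 endothelial markers had reads in AGM and yolk sac, 10 in E12.5 (Kdr at 0) and 9 in E14.5 (Cldn5 and Sox17 at 0). Their summed level per cell ran from 296 to 19644 CPM in AGM, 92.2 to 2747 in yolk sac, 7.99 to 3196 in E12.5 and 411 to 2794 in E14.5. Over the cells of a group it had Spearman correlations with the summed members of 0.38 in AGM (48 cells), then 0.18, 0.13 and 0.10 in yolk sac and the E12.5 and E14.5 livers (16 cells each). For the haematopoietic sum these were 0.31, -0.01, 0.46 and -0.23, and for the erythroid sum -0.08, -0.49, -0.55 and 0.29, all over points that share the cell's depth. All 12 haematopoietic markers had reads in every group, at 324 to 4423 CPM in AGM, 1355 to 5868 in yolk sac, 55.9 to 5442 in E12.5 and 1184 to 5604 in E14.5. The 10 erythroid markers all had reads in every group, at 0 to 561 CPM in AGM, 1.02 to 946 in yolk sac, 35.7 to 10746 in E12.5 and 17.1 to 227780 in E14.5. The part of these cell features in the members' levels was not tested.

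Macrophage and granulocyte markers summed to 0 to 6664 CPM per AGM cell, 0 to 1620 in yolk sac, 0 to 22467 in E12.5 and 127 to 5681 in E14.5, with reads of 9, 7, 10 and 9 of 11 genes. Adgre1 was at 0 in AGM and E12.5, Elane in AGM, yolk sac and E14.5, Csf1r in E14.5, and C1qa, C1qb and C1qc in yolk sac. Mesenchymal markers had reads of 8, 6, 3 and 2 of 8 genes and a median cell at 0 in every group, with Pdgfrb at 0 in all but AGM and Col1a1, Col3a1, Dcn and Twist1 at 0 in both livers. Hepatocyte markers had reads of 3, 5, 3 and 0 of 5 genes, at most 156.5 CPM per AGM cell, 791 in yolk sac, 4.998 in E12.5 and 0 in E14.5. The part of these markers in the members' levels was not tested.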

How the data were processed

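The deposited values are unnormalized read counts, whole numbers per gene and cell, for 96 cells. Per the labels, each well received 1 cell, cDNA came from a SMART-Seq kit for single cells, and a transposome cut and tagged it. The submitters' processing notes name FastQC, Trimmomatic 0.36, STAR, HTSeq and the build mm10. The annotation and the use of strand are not given in the sources used here. In GENCODE M21 the models of Jun, Junb, Jund, Atf3 and Dusp1 overlap other genes (Junos, Prdx2, Gm11175, Gm24748 and 4 genes for Dusp1), so reads there may be shared. Gene coordinates are from GENCODE M21 (GRCm38, the same build as mm10). The deposited Dusp1 identifier has an earlier version than in GENCODE M21. Its span and overlaps may thus differ from the model that was counted.

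Column names gave each cell's sample, and 0 columns were left unmapped. Of 19949 rows, 113 shared a symbol with another and were summed. All cells were kept, with no doublet call because wells were sorted for 1 cell. Reads were pooled per group as CPM, with exact 95% Poisson intervals. Intervals of shares are Clopper-Pearson at 95%. Reads carry no molecular identifiers, so intervals and the floor of 3 reads or 3 cells cover counting error only. A group is 1 sample, so no test was made. Ratios use 15239 genes with at least 30 reads. Thinning drew 500000 reads per cell.

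The members and lists were chosen with earlier results of these data known. All members are named. From each list the 4 genes with the largest E12.5 to AGM ratio are named, among those with a read in at least 25% of cells of the higher group and at most 50% of its reads in 1 cell, and 1 of the reference genes so chosen is not reported here. The 8 genes most like the summed members in AGM are named, among those with a read in at least 50% of AGM cells. Batf2, Cd14, Alb, Apob and Serpina1a were not analysed here, and Ccn1, Ccn2 and Mrtfa were read under their older symbols Cyr61, Ctgf and Mkl1. Alternatives were the mean of each cell's CPM, thinning, median-of-ratios scaling, 10 CPM added, at least 2000 genes per cell, omission of the deepest cell of each group or of each cell in turn, 4-fold in place of 2-fold, no minimum on reads, and, for detection, at least 10 CPM or 5 reads. The calculation was tested on simulated data. Python 3.11.15, numpy 2.4.6, pandas 2.3.3, scipy 1.17.1 and matplotlib 3.10.9 were used.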

Additional observations from a re-analysis of the deposited data

How the results depend on the processing

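The counts of members at least 2-fold lower in either liver than in either E11.5 group stayed within 1.5 times the reported value under every alternative run, 4-fold included (6, 6, 5 and 5 members). With cells left out in turn they ranged from 9 to 10 (E12.5 against AGM), 8 to 9 (E14.5 against AGM), 7 to 7 (E12.5 against yolk sac) and 6 to 7 (E14.5 against yolk sac). The yolk sac count against AGM, 4, was 2 with 10 CPM added, 0 at 4-fold and 2 to 5 as cells were left out. The E14.5 count against E12.5, 2, was 1 after thinning, 0 with 10 CPM added, 0 at 4-fold, 1 without E12.5 cell 9 and 0 to 2 as cells were left out. The cause was not tested. The median number of members detected was 9, 8, 4 and 4.5, and it was 8, 6, 3 and 4 with at least 10 CPM required and 8.5, 6.5, 3 and 4 with at least 5 reads. As cells were left out it was 9, 8 and 4 throughout in AGM, yolk sac and E12.5, and 4 to 5 in E14.5. Of 60 member ratios, 40 were past 2-fold. Over 10 settings these gave 400 values, of which 383 kept direction and stayed past 2-fold, 17 kept direction only and 0 reversed. A setting that removes cells of 1 group leaves comparisons without that group unchanged, so part of the 383 was fixed in advance. Omission of each cell in turn is not among the 10 settings. There, the Egr1 ratio of E14.5 over E12.5 went from -1.33 to 0.198 without E12.5 cell 7. With no minimum on reads, the share of all genes at least 2-fold lower was 19.999% in E12.5 and 19.4% in E14.5 against AGM. Leaving out the erythroid-rich E14.5 cells, the yolk sac cells without Cdh5 or Procr reads, E12.5 cell 9 or AGM cell 23 was chosen after seeing the data. Depth limits the zeros: 3 reads over a liver group is 0.157 CPM in E12.5 and 0.146 CPM in E14.5. No paired analysis was possible because cells share only a number in the labels, which names no animal or litter, and the results come from no test.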
